A study of Mus musculus with 21 samples.

Results

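The 10 genes described here are Yrdc, B3gat3, Art5, Pias4, Lsmem2, Usp40, Ankrd9, Tom1l2, Mid1ip1 and Luzp1, out of 20960 genes counted in mouse hearts. Most of them encode enzymes or regulators of other proteins. They were picked because their levels were lower in hearts of mice given nanoplastics, with no numeric threshold, so their differences between treatments are given as a description, with no p-value for a single gene, and nothing is read from counts of calls on that contrast. The treated group held 4 adult male wild-type mice that received polystyrene nanoplastics, plastic particles of nanometre size, for 8 weeks, and the control group held 3 adult male wild-type mice given distilled water. Each heart was cut into 3 sections, labelled atrial, right ventricular and left ventricular, and each section gave 1 bulk library of polyadenylated RNA, 21 libraries in all. The labels number the mice within each treatment. The p-values of treatment fits over the whole heart or in a single section measure the spread between these mice. Those of fits with the mouse as a block measure the spread left between sections within mice. The question taken up here is how alike the lower levels of the 10 genes were in the sections of the heart.

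The members belong to no single pathway. Several act by adding or removing small groups on other molecules, a way in which cells tune proteins and RNAs after they are made: ubiquitin and SUMO are small proteins that are joined to target proteins by ligases and taken off by proteases, mono-ADP-ribosyltransferases join an ADP-ribose unit to proteins, and transfer RNAs carry chemical marks that help the ribosome read codons. Others help to build the sugar chains of proteoglycans, sort membrane vesicles, or promote the assembly of the enzyme that starts fatty acid synthesis. Heart muscle is rich in long-lived contractile proteins, and its ubiquitin system is known for the turnover of these proteins.

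Library totals lay between 413436 and 2439314 counts, except for the right ventricular library of nanoplastics mouse 2. That library held 4662 counts and no count of any of the 10 genes. In it 1 count was worth 214.5 CPM, the unit used here for a gene's share of its library, and 3 counts, the limit that a count of 0 allows, were worth 643.5 CPM, far above every level of the 10 genes. It stayed in the fits but was left out of the levels, ranges and overlaps given for the right ventricle, where 3 nanoplastics libraries therefore remained. Those 3 held 438053 to 813585 counts, against 1333133 to 2042568 counts in the control right ventricular libraries. Heart muscle markers (Tnnt2, Tnni3, Actc1, Myh6, Ttn) were abundant in every section, with summed levels of 29930 to 53950 CPM. The atrial muscle markers Myl7, Myl4 and Sln summed to between 10.1 and 38990 CPM in the nanoplastics atrial libraries and to between 19.9 and 297 CPM in the control atrial libraries, while the ventricular markers Myl2, Myl3 and Irx4 were at 13680 CPM or more in all of them. Ventricular markers thus exceeded atrial ones in every control library labelled atrial, and the section is called atrial below only after its label.

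Promoter sequences were available for 9 of the 10 genes. They are shown for the 3 genes with the largest differences, Yrdc, B3gat3 and Art5, and for Lsmem2, the only member with a match to the MEF2-type motif, as examples of how their upstream sequences differ. Each is a stretch of 150 bases upstream of the annotated start of the gene, from RefSeq on GRCm38.p6, read 5′ to 3′ on the strand of the gene. It runs from base 250 to base 101 before the start for Yrdc, and from 170 to 21 for B3gat3, Art5 and Lsmem2. Motif matches outside these stretches are not shown. The stretches lie at chr4:124850509-124850658 on the plus strand for Yrdc, chr19:8920223-8920372 on the plus strand for B3gat3, chr7:102100250-102100399 on the minus strand for Art5 and chr9:107597096-107597245 on the minus strand for Lsmem2. Capitals mark matches, on either strand, to the motifs searched.
Yrdc: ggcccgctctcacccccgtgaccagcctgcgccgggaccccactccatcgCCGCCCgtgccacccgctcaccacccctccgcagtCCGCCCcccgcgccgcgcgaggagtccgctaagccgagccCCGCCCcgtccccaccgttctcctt
B3gat3: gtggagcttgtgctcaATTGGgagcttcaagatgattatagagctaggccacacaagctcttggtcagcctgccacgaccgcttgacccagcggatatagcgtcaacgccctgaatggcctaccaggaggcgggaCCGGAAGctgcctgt
Art5: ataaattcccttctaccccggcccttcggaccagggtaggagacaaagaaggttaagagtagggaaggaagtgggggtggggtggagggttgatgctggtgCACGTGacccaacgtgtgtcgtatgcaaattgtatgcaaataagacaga
Lsmem2: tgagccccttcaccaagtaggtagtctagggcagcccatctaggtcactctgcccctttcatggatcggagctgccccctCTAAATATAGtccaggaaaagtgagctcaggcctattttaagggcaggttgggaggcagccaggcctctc
All motifs named here were searched on both strands over the 250 bases before the start. GGGCGG, the GC box, occurred in Yrdc, Ankrd9, Mid1ip1 and Luzp1, 4 of 9 members, and in 59.5% of the 6583 promoters of tested genes. CCAAT occurred in B3gat3, Ankrd9 and Tom1l2, against 36.7% of those promoters, and CCGGAAG, an ETS-type motif, in Yrdc and B3gat3, against 15.3%. The E-box CACGTG was found in Art5 alone and in 8.67% of the promoters, TATAAA in Usp40 alone and in 6.79%, and the MEF2-type motif, CTA and ATAG with any 3 bases between, in Lsmem2 alone and in 1.49%. TGACGTCA, the cyclic AMP response element, was in none of the 9 and in 2.95%. The GC content of the same 250 bases ranged from 42% in Usp40 to 76% in Yrdc, around a median of 59.6% for the promoters of tested genes. No searched motif was shared by all 9 members.

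Yrdc makes the activated threonylcarbamoyl unit from which the t6A mark of many transfer RNAs is formed. Over the whole heart, taken as the sum of the 3 sections of each mouse, Yrdc had 1.13, 0.924, 0.365 and 0.861 CPM in the nanoplastics mice and 4.59, 4.90 and 2.89 CPM in the control mice. These CPM values include the TMM scaling of edgeR, which evens out differences in library composition. Every nanoplastics mouse lay well below the lowest control mouse. The mean of Yrdc was 0.820 ± 0.324 CPM with nanoplastics and 4.13 ± 1.08 CPM in controls (SD, n = 4 and 3), a log2 change of −2.33 ± 0.54 (SE). It was the largest decrease among the 8485 genes tested over the whole heart, a rank that follows from the picking and is no result. Nanoplastics mice had 1 to 3 counts of Yrdc each, so the gene was among those tested through its control counts. With the sections at equal weight, as the mean of each mouse's log2 CPM with a prior count of 2, the log2 change of Yrdc was −1.29. Behind it stood 9 counts in all nanoplastics libraries, against 63 counts in the control libraries, so single libraries often had none. The atrial levels were 1.28, 0.831, 0 and 1.45 CPM with nanoplastics, against 4.50, 7.21 and 3.50 CPM in controls. In the left ventricle the levels were 0.728, 1.13, 0 and 0 CPM with nanoplastics, against 4.55, 4.83 and 2.42 CPM in controls. Right ventricular levels were 2.44, 1.38 and 0 CPM with nanoplastics, against 5.28, 4.24 and 2.75 CPM in controls. The groups did not overlap in any of the sections, but few counts separate them. In the left ventricle the lowest control value, 2.42 CPM, was 1 count in the shallow library of mouse 3. Nanoplastics mice 1 and 2 also had 1 count there, in deeper libraries. In the right ventricle the highest nanoplastics value, 2.44 CPM, was 1 count.

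B3gat3 encodes a glucuronosyltransferase that completes the linker on which heparan sulfate and chondroitin sulfate chains of proteoglycans are built. It had 1.51, 1.39, 1.83 and 2.01 CPM in nanoplastics hearts and 5.83, 5.62 and 4.92 CPM in control hearts, with means of 1.68 ± 0.286 and 5.46 ± 0.476 CPM (SD, n = 4 and 3). Both groups were tight, and the log2 change was −1.66 ± 0.36 (SE), or −1.18 for B3gat3 with the sections at equal weight. For the right ventricle, a single count was seen in 1 of the 3 nanoplastics libraries, against 33 counts in the control libraries. That made the right ventricular ratio of count rates 0.107, with a 95% exact interval of 0.00264 to 0.641 for counting error only. The atrial levels were 0, 1.66, 3.58 and 1.93 CPM with nanoplastics, against 5.40, 4.51 and 5.60 CPM in controls. Left ventricular levels were 2.91, 1.13, 1.87 and 2.40 CPM with nanoplastics, against 6.82, 5.70 and 2.42 CPM in controls, and this was the section where the groups overlapped, through the shallow control left ventricle of mouse 3, in which the gene had 1 count.

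Art5, a member of the mono-ADP-ribosyltransferase family whose protein is secreted in mice, had 3.01, 0.462, 3.29 and 2.87 CPM in nanoplastics hearts and 6.89, 5.80 and 8.10 CPM in control hearts. Nanoplastics mouse 2 stood below the other 3 treated mice, which lay close together. The log2 change was −1.43 ± 0.36 (SE). Art5 had its highest control levels in the left ventricle, at 8.18, 7.90 and 12.1 CPM, against 3.64, 1.13, 3.74 and 2.40 CPM with nanoplastics. The highest right ventricular nanoplastics library, at 5.02 CPM, lay above the lowest control library, at 4.24 CPM. In the atrial section the highest nanoplastics library, at 3.58 CPM, lay below the lowest control library, at 5.41 CPM.

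Pias4 is a ligase that joins SUMO to target proteins, and Usp40 belongs to the ubiquitin-specific proteases, which take ubiquitin off proteins. Pias4 had 1.51, 2.77, 2.56 and 4.30 CPM in nanoplastics hearts and 7.59, 6.17 and 6.08 CPM in control hearts, a log2 change of −1.20 ± 0.32 (SE). Its left ventricular levels did not overlap, at 0 to 3.74 CPM with nanoplastics, against 4.84 to 8.77 CPM in controls. The atrial levels did, at 1.19 to 6.27 CPM with nanoplastics, against 4.51 to 8.40 CPM in controls, the highest treated library being that of mouse 4. Usp40 had 1.88, 5.08, 4.02 and 6.89 CPM in nanoplastics hearts and 9.53, 9.98 and 9.26 CPM in control hearts. The control mice were within 1 CPM of each other while the nanoplastics mice were spread, and the log2 change was −1.07 ± 0.30 (SE). Usp40 was one of the members whose groups were apart in every section: the highest nanoplastics value was 8.68, 6.89 and 6.80 CPM in the atria, right and left ventricle, and the lowest control values were 8.99, 8.47 and 9.65 CPM in the same order.

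Ankrd9 encodes an ankyrin repeat protein that, in human cells, serves as a substrate receptor of a cullin ubiquitin ligase for IMPDH, an enzyme of guanine nucleotide synthesis. It had 4.14, 6.93, 5.11 and 7.46 CPM in nanoplastics hearts and 15.9, 9.61 and 11.6 CPM in control hearts, a log2 change of −1.06 ± 0.26 (SE). The lowest control mouse was still above the highest nanoplastics mouse. Within the sections only the left ventricle kept the groups apart, at 2.40 to 11.3 CPM with nanoplastics, against 12.1 to 15.5 CPM in controls. The right ventricular level of nanoplastics mouse 4, at 12.5 CPM from 5 counts, lay within the control range of 6.88 to 16.3 CPM.

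Tom1l2 is a relative of TOM1, an adaptor that binds ubiquitin and clathrin and takes part in the sorting of membrane proteins. Its levels were 3.01, 4.62, 4.75 and 9.47 CPM in nanoplastics hearts and 12.4, 10.7 and 12.4 CPM in control hearts, a log2 change of −1.05 ± 0.29 (SE). Nanoplastics mouse 4 stood apart from the other treated mice and closer to the lowest control mouse. Right ventricular Tom1l2 was at 0, 5.51 and 22.6 CPM with nanoplastics, against 15.4, 12.7 and 16.5 CPM in controls. The value of 22.6 CPM came from 9 counts in mouse 4 and was the largest ratio to a control mean of any nanoplastics library, at 1.52. No section kept the groups of Tom1l2 apart.

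Mid1ip1 encodes a protein that binds acetyl-CoA carboxylase, the enzyme of the committed step of fatty acid synthesis, and promotes its assembly into active polymers. It was the member with the most counts, 203 in nanoplastics libraries and 504 in control libraries, and so the one measured most precisely. Its whole-heart levels were 17.0, 19.4, 18.3 and 18.9 CPM with nanoplastics, against 32.8, 37.2 and 32.7 CPM in controls. The 4 nanoplastics mice lay within 2.5 CPM of each other, and the log2 change was −0.90 ± 0.16 (SE). In the atria the levels were 17.9, 21.6, 20.3 and 24.6 CPM with nanoplastics, against 33.3, 24.3 and 34.3 CPM in controls. In the right ventricle they were 26.9, 9.65 and 25.1 CPM with nanoplastics, against 36.0, 35.5 and 35.0 CPM in controls. In the left ventricle they were 14.6, 18.1, 24.3 and 6.004 CPM with nanoplastics, against 33.7, 48.7 and 31.5 CPM in controls. The ventricular groups were apart, and the atrial groups overlapped slightly, the highest nanoplastics library lying just above the lowest control library.

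Luzp1 encodes a leucine zipper protein found at the centrosome and on actin filaments, which it cross-links. Its levels were 22.6, 14.8, 19.4 and 14.6 CPM in nanoplastics hearts and 31.4, 23.9 and 28.1 CPM in control hearts, and its log2 change of −0.64 ± 0.19 (SE) was the smallest of the 10. In the atria all 4 nanoplastics libraries, at 11.5, 13.3, 13.1 and 15.4 CPM, were near 1 level, as were the 3 control libraries at 29.7, 27.9 and 28.0 CPM. Right ventricular nanoplastics levels were 31.7, 31.7 and 5.02 CPM, against 32.2, 23.3 and 32.3 CPM in controls. Of these 3 nanoplastics libraries, those of mice 1 and 3 were at the control level, and the low one, of mouse 4, held 2 counts. Left ventricular levels of Luzp1 overlapped, at 17.8 to 27.7 CPM with nanoplastics, against 24.2 to 35.5 CPM in controls.

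Lsmem2 encodes a small leucine-rich protein with 1 membrane-spanning segment. Its levels were 3.39, 5.54, 6.21 and 4.59 CPM in nanoplastics hearts and 11.7, 10.3 and 10.99 CPM in control hearts, a log2 change of −1.16 ± 0.25 (SE). The atrial levels were 2.39 to 5.30 CPM with nanoplastics, against 8.40 to 12.6 CPM in controls, and the left ventricular levels were 4.80 to 6.80 CPM with nanoplastics, against 7.26 to 14.1 CPM in controls. Neither pair of ranges overlapped. In the right ventricle mouse 3 of the nanoplastics group, at 12.4 CPM, was within the control range of 10.6 to 15.8 CPM, whereas mice 1 and 4 were at 0 and 2.51 CPM. The annotation used for lengths lists Lsmem2 as a noncoding transcript of 369 nt, while RefSeq lists it as protein coding, so levels per length are uncertain for this gene.

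**Figure D1:**
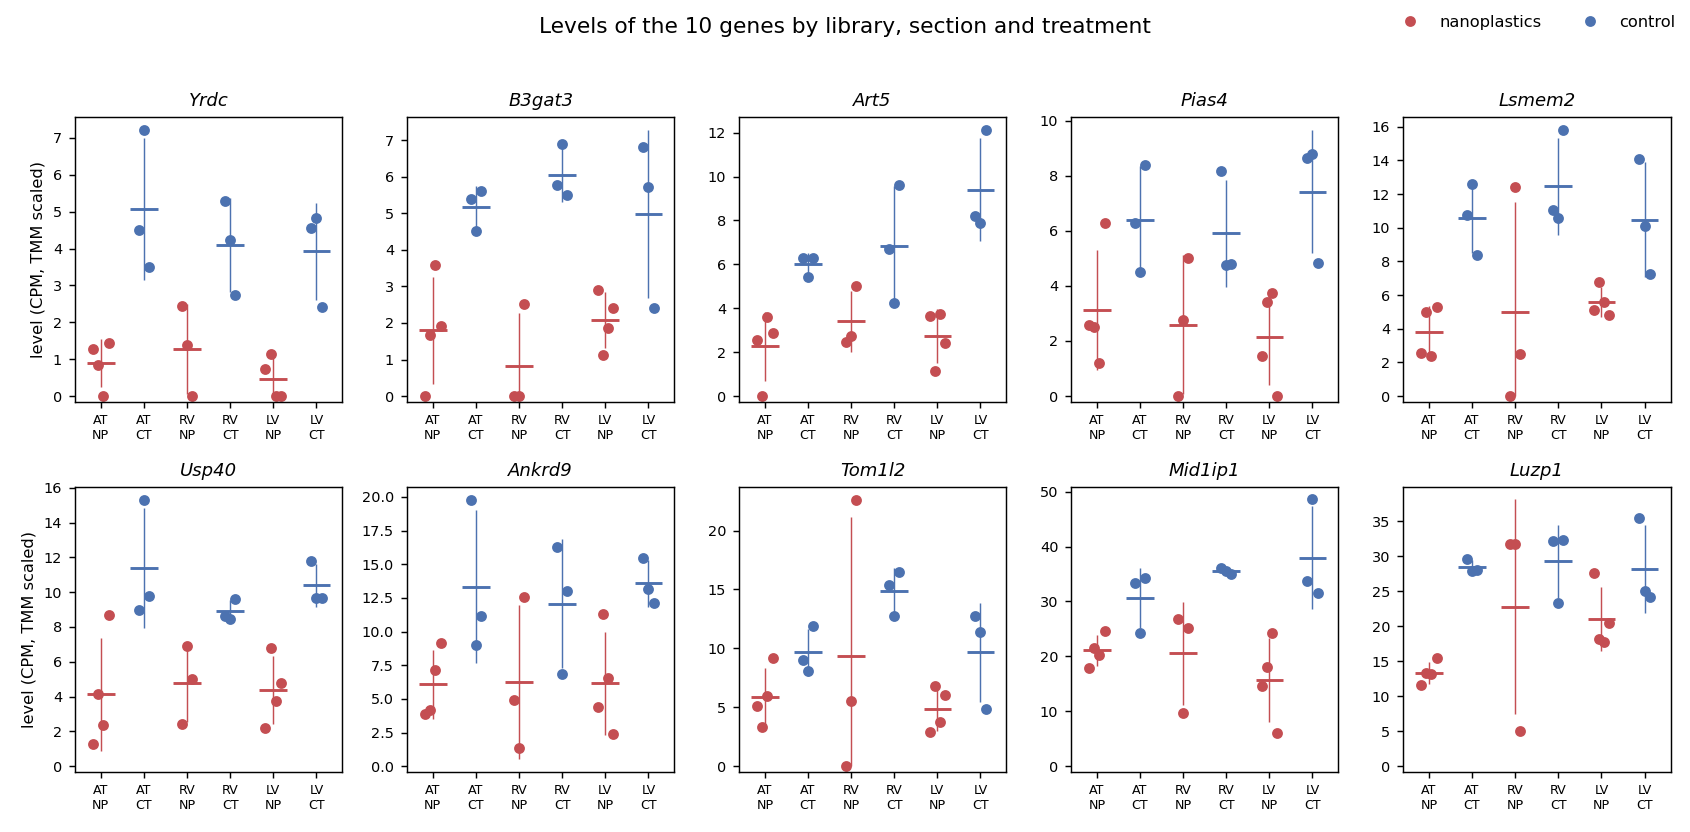
Levels of the 10 genes in CPM (TMM scaled) in each library, by section (AT atrial, RV right ventricular, LV left ventricular) with nanoplastics (NP, red) left of control (CT, blue). Points are libraries, horizontal lines are means and vertical lines are ± SD, cut at 0. The right ventricular library of nanoplastics mouse 2 is not drawn. Mid1ip1 and Luzp1 have the highest levels, and the groups are apart in all sections for Yrdc and Usp40. The lowest left ventricular control value of Yrdc is 1 count in a shallow library.

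Mean control levels of Mid1ip1 were 15.2, 17.6 and 18.8 CPM per kilobase of annotated transcript in the atrial, right and left ventricular sections. They were higher than those of every other member except Lsmem2. Whether counts in these libraries grow with transcript length was not tested, so this order is uncertain. Most members were expressed at low levels: 8 of the 10 had a mean count per mouse below the median of 46.1 for tested genes. Yrdc, with a mean of 10.3 counts per mouse, lay above only 0.860% of the tested genes in count.

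By count rates, the ratio of nanoplastics to control was below 1 for all 10 genes in each section. The direction follows from how the genes were picked and is no result in itself. In the atria the ratios ran from 0.207 for Yrdc to 0.713 for Mid1ip1, with a median of 0.480. Right ventricular ratios ran from 0.107 for B3gat3 to 0.851 for Luzp1, with a median of 0.502. Those of the left ventricle ran from 0.107 for Yrdc to 0.730 for Luzp1, with a median of 0.391. The right ventricle had the fewest counts behind it, 1 to 38 per gene in nanoplastics libraries, against 23 to 193 in control libraries. Exact intervals given for single count ratios pool the counts of a group and cover counting error only. They leave out the spread between mice, and amplified copies of a molecule may have been counted more than once.

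Every nanoplastics library lay below every control library for 6 of 10 genes in the atria, and for 4 and 7 of 10 in the right and left ventricle. Over all tested genes this pattern was seen for 5.95% in the atria, and for 10% and 5.62% in the right and left ventricle. Over the whole heart all 10 genes had this pattern, beside 8.17% of tested genes. Yrdc and Usp40 had it in all sections. Tom1l2 had it in none of them, although it did over the whole heart. Nothing is read from these counts, since the genes were picked for low values in the nanoplastics libraries.

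The fitted log2 changes were negative for 10 of 10 genes in each section, with medians of −1.12, −0.97 and −1.34 in the atria, right and left ventricle, beside −0.03, −0.01 and −0.02 for all genes tested there. The genes did not keep the same order. The left ventricle had the largest decrease for Yrdc (−3.00), Art5 (−1.56), Pias4 (−1.91), Usp40 (−1.36), Ankrd9 (−1.23), Tom1l2 (−1.28) and Mid1ip1 (−1.32). For Yrdc this value had an SE of 1.39 and rested on 2 nanoplastics counts, against −2.20 ± 0.88 (SE) in the atria. B3gat3 had its largest in the right ventricle, at −3.00 against −1.47 in the atria and −1.42 in the left ventricle, where its SE was 1.70 in the right ventricle and its nanoplastics level rested on 1 count. Lsmem2 and Luzp1 had theirs in the atria, at −1.32 and −1.07. The section with the largest decrease was the same in all 7 fits that left out 1 mouse for Yrdc, B3gat3 and Luzp1, in 6 of 7 for Art5, Pias4, Lsmem2, Tom1l2 and Mid1ip1, in 5 for Usp40 and in 4 for Ankrd9. Those fits share most of their libraries. Ankrd9 had the changes closest together over all mice, at −1.02, −1.19 and −1.23 in the atria, right and left ventricle, but this evenness did not hold when mice were left out. Its right ventricular change was −0.49 without nanoplastics mouse 3 and −2.16 without nanoplastics mouse 4, and its atrial change was −0.64 without control mouse 1. The changes were farthest apart for Yrdc and B3gat3, the members with the fewest counts.

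**Figure D2:**
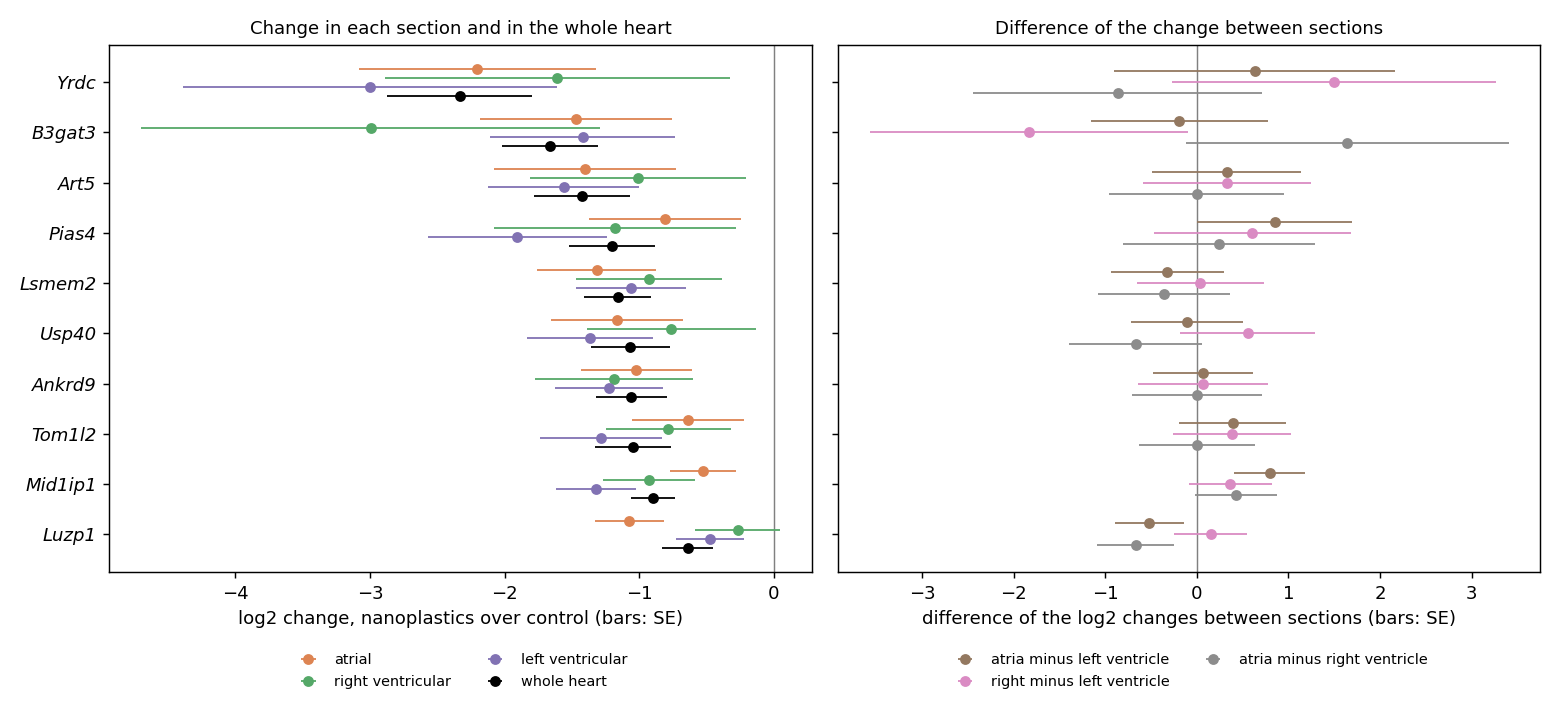
Left, log2 change of each gene, nanoplastics over control, with its SE, in the atrial, right ventricular and left ventricular sections and the whole heart. Right, difference of that change between pairs of sections, with its SE, from the fit with the mouse as a block. All changes on the left are below 0, and differences on the right scatter on both sides of 0, from −1.83 to 1.64.

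Whether the nanoplastics effect differed between sections was tested with edgeR, in a fit over all 21 libraries in which each mouse had its own term. None of the 10 genes was called at an adjusted p under 0.05 in any of the 3 differences, and neither was any of the 6273 genes tested, so the called share was 0% for atria minus left ventricle, 0% for right minus left ventricle and 0% for atria minus right ventricle. At an unadjusted p under 0.05 there were 343, 188 and 318 genes in the same order, and 1 of the 10 members. DESeq2 called none of the members, and 1 gene for atria minus left ventricle. The member with an unadjusted p under 0.05 was Mid1ip1, whose decrease was smaller in the atria (−0.53 ± 0.24) than in the left ventricle (−1.32 ± 0.30), a difference of 0.79 ± 0.38 (SE) with an unadjusted p of 0.0431 and an adjusted p of 0.903 in the edgeR fit. Without the small right ventricular library the unadjusted p of Mid1ip1 was 0.0578, and no member was then under 0.05. Mid1ip1 was also the only 1 of 30 pairs of section intervals, 3 for each gene, that did not overlap: the count ratio of Mid1ip1 was 0.713 (95% exact interval 0.543 to 0.937) in the atria and 0.398 (0.297 to 0.528) in the left ventricle. These intervals leave out the spread between mice, and left ventricular nanoplastics levels of Mid1ip1 ran from 6.004 to 24.3 CPM. The share of such pairs among all tested genes was not computed, so nothing is read from this pair.

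Luzp1 pointed the other way. Its decrease was larger in the atria (−1.07 ± 0.25) than in the right ventricle (−0.27 ± 0.32) or the left ventricle (−0.47 ± 0.26), and the differences were −0.67 ± 0.42 and −0.52 ± 0.37 (SE), with adjusted p of 0.972 and 0.951 in edgeR. The differences of B3gat3 that involve the right ventricle were the largest, at 1.64 ± 1.76 for atria minus right ventricle and −1.83 ± 1.74 for right minus left ventricle (SE), and rest on its single right ventricular count. For the genes other than Mid1ip1 and Luzp1 the SE of a difference lay between 0.55 and 1.77, so that section differences of a log2 unit were not detectable at this depth for most of them, and the tests do not show that the sections responded alike. The differences of the 10 genes had medians of 0.20 for atria minus left ventricle, 0.35 for right minus left ventricle and close to 0 for atria minus right ventricle.

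Sections were also compared with each other over all mice, with the mouse as a block, which sets the treatment aside. None of the 10 genes was called in edgeR between atria and left ventricle, where 0.154% of genes were called, between atria and right ventricle, where 0.625% were, or between right and left ventricle, where 0.0199% were, and DESeq2 called none. Tom1l2 was the member with the smallest p, higher in the right ventricle: its log2 difference was −0.57 ± 0.27 for atria over right ventricle and 0.49 ± 0.25 (SE) for right over left ventricle, with unadjusted p of 0.0359 and 0.0477 and adjusted p of 0.628 and 0.916. Art5 was at −0.44 ± 0.33 and Yrdc at 0.44 ± 0.44 (SE) for atria over left ventricle, and the remaining differences were smaller. Without the small library the Tom1l2 differences were −0.57 ± 0.29 and 0.50 ± 0.27 (SE).

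In each nanoplastics library the levels of the 10 genes can be set against the mean of the control libraries of the same section. All 10 genes were below that mean in each of the 4 atrial and 4 left ventricular libraries. In the right ventricle 9 genes were below it in mouse 1, 9 in mouse 3 and 8 in mouse 4. The exceptions were Luzp1 in mice 1 and 3, at ratios of 1.09 and 1.08, and Ankrd9 and Tom1l2 in mouse 4, at 1.04 and 1.52. The median ratio of the 10 genes ranged from 0.345 to 0.614 over the atrial libraries, from 0.315 to 0.635 over the right ventricular libraries and from 0.353 to 0.560 over the left ventricular libraries. The atrial and right ventricular libraries of mouse 4 had the highest medians of the nanoplastics libraries, whereas its left ventricular library, at 0.357, was among the low ones.

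**Figure D3:**
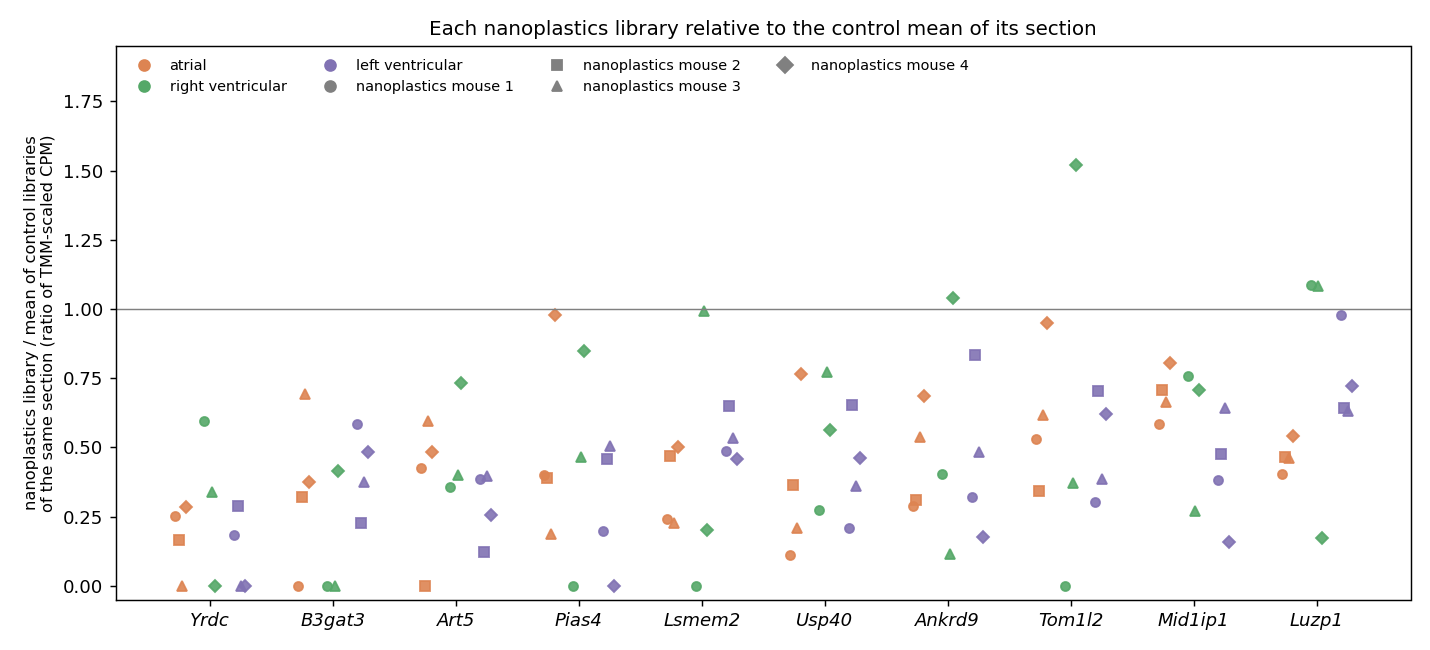
Level of each gene in each nanoplastics library, divided by the mean of the control libraries of the same section (ratio of TMM-scaled CPM, linear axis). Colours are sections, symbols are mice, and the line marks a ratio of 1. Points above the line are all from the right ventricle, the highest being Tom1l2 in mouse 4 at 1.52.

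Over the whole heart, 9 of the 10 genes had an adjusted p under 0.05 for lower levels in edgeR, beside 0.766% of all tested genes. Luzp1 did not. This contrast is the one the genes were picked from, so nothing is read from the count. By section the count of members was 0 in the atria, the right ventricle and the left ventricle, beside 0%, 0.267% and 0.0184% of tested genes, while 8, 3 and 9 members had an unadjusted p under 0.05, beside 681 of 5508, 607 of 4496 and 774 of 5446 tested genes in either direction. On their own counts 4, 3 and 4 members passed the filter in these sections. DESeq2 called none in the right ventricle and gave the members no adjusted p in the atria and left ventricle. Whole-heart calls over all genes depended on single mice. Without control mouse 2 none of the 8725 genes tested was called in either direction in edgeR, members included, and 1179 had an unadjusted p under 0.05. Members made up 4 of 16 genes called lower without control mouse 1, 3 of 15 without control mouse 3, 2 of 7 without nanoplastics mouse 1, 2 of 6 without nanoplastics mouse 2, 5 of 64 without nanoplastics mouse 3 and 8 of 28 without nanoplastics mouse 4. They were 1 of 44 with DESeq2, which gave an adjusted p to 2 of the members, and 2 of 8 with atria and left ventricle alone. The log2 change of every member stayed below 0 over the whole heart in each of those settings. They reuse most of the same libraries, so this sign follows from the picking and is no result. In these bulk samples, fewer cells of a type and less RNA per cell cannot be told apart.

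Summed over the 10 genes, the level was 44.3 to 77.6 CPM of the library total in the 11 nanoplastics libraries and 111.3 to 158.3 CPM in the 9 control libraries. That separation follows from how the genes were picked and is no result. Another measure of the libraries moved with treatment: the median annotated transcript length per count was 1318 to 1598 nt in nanoplastics libraries and 1633 to 1796 nt in control libraries. The median log2 change over the whole heart was −0.10 for tested genes longer than 4618 nt and 0.14 for those up to 1891 nt. Of the members, Usp40 at 5049 nt, Tom1l2 at 4999 nt and Luzp1 at 7526 nt were longer than 4618 nt, and the other 7 were below the median of 3107 nt. After each library's trend on transcript length was taken out, the median log2 change of the members was −1.08, against −1.11 as fitted, and 4 of them were among 21 genes called lower. Single members shifted in both directions. Lsmem2, whose length is uncertain, went from −1.16 to −1.61. Luzp1 went from −0.64 to −0.54 over the whole heart and from −1.07 to −0.86 in the atria. Marker sums are given in CPM of the library total, without TMM scaling, whereas the log2 changes include it. On library totals the median whole-heart log2 change of all tested genes was −0.27, against −0.03 with TMM. Endothelial markers (Pecam1, Cdh5, Kdr, Emcn, Tie1) summed to 105 to 140.2 CPM in nanoplastics atrial libraries, against 140.5 to 159 CPM in control ones. In the right ventricle these markers summed to 79.9 to 116 CPM, against 110 to 149 CPM in controls. In the left ventricle the sums were 88.8 to 122 CPM, against 97.2 to 129 CPM in controls. Their whole-heart log2 changes ran from −0.31 for Cdh5 to 0.13 for Emcn, none of the 5 was called in edgeR and none was at 0. Fibroblast markers (Col1a1, Col1a2, Dcn, Pdgfra, Lum) had whole-heart log2 changes from 0.20 for Lum to 1.19 for Col1a1, all 5 above 0, and none was without counts. Dcn was called higher, at 0.55 with an adjusted p of 0.0466 in edgeR. Their summed levels were 1085 to 1874 CPM in nanoplastics atrial libraries and 1085 to 1610 CPM in control ones, 858 to 1281 CPM, against 953 to 1106 CPM in controls, in the right ventricle, and 999 to 1398 CPM, against 861 to 1122 CPM in controls, in the left ventricle, so the groups overlapped. Of 32 marker genes tested, 3 were called, all higher in nanoplastics hearts. By edgeR they were Dcn, the heart muscle gene Tnni3 (log2 change 0.53, adjusted p 0.0183) and the ventricular gene Myl2 (0.54, adjusted p 0.0250). The other ventricular markers, Myl3 and Irx4, went the other way, at −0.21 and −0.29, and were not called. The other heart muscle markers, Tnnt2, Actc1, Myh6 and Ttn, were at 0.23, 0.44, 0.42 and 0.44, not called. The atrial markers Myl7, Myl4 and Sln were at 6.71, 5.93 and 7.19, not called either. The part of these markers in the lower levels of the 10 genes was not tested.

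**Figure D4:**
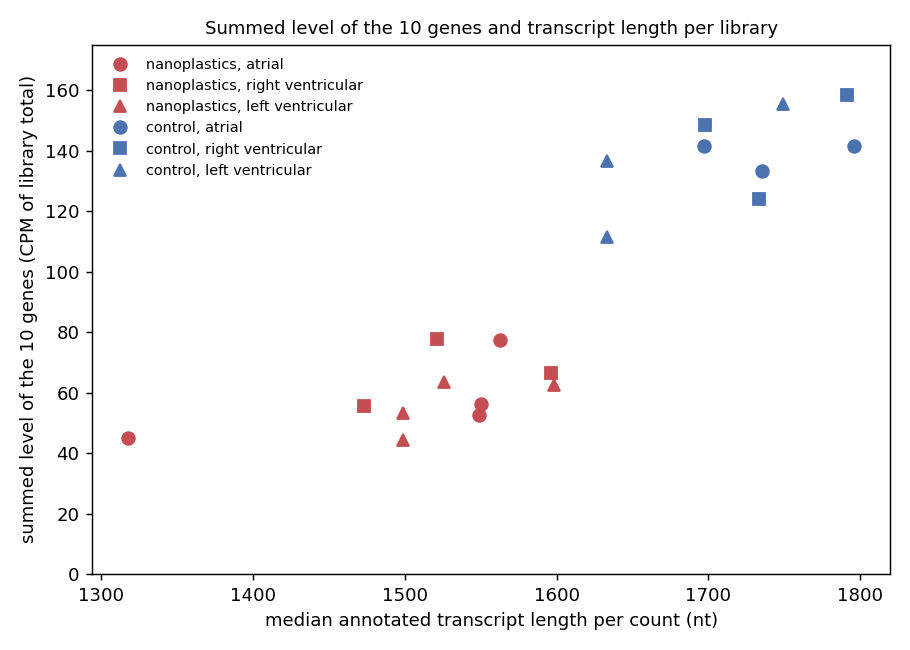
Summed level of the 10 genes (CPM of the library total) against the median annotated transcript length per count (nt) for 11 nanoplastics (red) and 9 control (blue) libraries, with symbols for sections. Nanoplastics libraries lie at 44.3 to 77.6 CPM and 1318 to 1598 nt, and control libraries at 111.3 to 158.3 CPM and 1633 to 1796 nt. The separation in summed level follows from how the genes were picked and is no result.

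Across the 20 larger libraries the 10 genes varied together, with Pearson correlations of log2 CPM over 45 pairs from −0.09 to 0.80 and a median of 0.59. The highest was that of Ankrd9 with Mid1ip1 and the lowest that of Tom1l2 with Luzp1. These values contain the difference between treatments that the genes were picked for. With each library taken as its deviation from the mean of its section and treatment, the median was 0.11, the range −0.60 to 0.69, and 29 of 45 pairs were above 0. Genes of a library share its depth and scaling, so these are descriptions. The genes whose pattern over the libraries was most like that of the members, among 5253 compared, were Hspb7, a small heat shock protein of heart muscle, Sspn, sarcospan of the dystrophin complex, Ppara, a nuclear receptor of fatty acid oxidation, Ehd4, Msrb2, Spop, Papola and Mylk4. Their mean correlations with the 10 genes ranged from 0.63 to 0.65, and their whole-heart log2 changes ran from −1.31 for Ppara to −0.44 for Spop.

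The members' pathways were covered by lists of related genes. Of 135 related genes in 10 lists, 93 were tested over the whole heart, none was called in either direction in edgeR, 10 had an unadjusted p under 0.05 (10.8%, beside 18.2% of all tested genes), and DESeq2 called none of the 50 to which it gave an adjusted p. Of the 93, 57.0% had a log2 change below 0, beside 53.4% of all tested genes, and their median was −0.05, beside −0.03 for all. In the lists below no gene was called in edgeR, and the values given are log2 changes over the whole heart with their SE.

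For Yrdc, 3 of 7 tested genes of threonylcarbamoyl modification of transfer RNA were below 0. Lage3, a subunit of the complex that moves the threonylcarbamoyl unit onto transfer RNA, was at 0.37 ± 0.14, and its partner Gon7 at −0.54 ± 0.30. For B3gat3, 5 of 8 tested genes of glycosaminoglycan chain synthesis were below 0, with Ndst1, which sulfates heparan sulfate, at −0.50 ± 0.44 and Ext1, which lengthens that chain, at 0.28 ± 0.26. For Art5, 2 of 7 tested genes of mono-ADP-ribosylation were below 0, with Macrod2, which takes ADP-ribose off proteins, at 0.56 ± 0.25, and the relatives Art4 and Art3 at 0.36 ± 0.19 and 0.25 ± 0.16. Art3 was abundant, at 486 ± 101 CPM with nanoplastics and 408 ± 58.2 CPM in controls (SD, n = 4 and 3). In each of these lists the neighbours were on both sides of 0.

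For Pias4, 9 of 14 tested genes of the SUMO pathway were below 0, among them the protease Senp5 at −0.67 ± 0.29. For Usp40, 17 of 28 tested ubiquitin-specific proteases were below 0, with Usp2 at −0.44 ± 0.19, Usp48 at −0.58 ± 0.26 and Usp24 at −0.35 ± 0.25. For Ankrd9, 2 of 5 tested genes of its ligase and of IMPDH were below 0: Impdh2 was at −0.24 ± 0.21, and Elob and Eloc, which link substrate receptors to the cullin, were at 0.30 ± 0.15 and 0.14 ± 0.15. For Tom1l2, 7 of 11 tested sorting genes were below 0. Zfyve16, an endosomal partner of TOM1, was at −0.61 ± 0.22, the myosin Myo6 at −0.71 ± 0.34 and the clathrin heavy chain Cltc at 0.36 ± 0.17.

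For Mid1ip1, 4 of 6 tested genes of fatty acid synthesis were below 0. Scd1, a fatty acid desaturase, was at 1.31 ± 0.41, with 4.19 ± 1.65 CPM with nanoplastics and 1.79 ± 0.464 CPM in controls (SD, n = 4 and 3), on the opposite side from Mid1ip1. Nr1h3, a nuclear receptor that switches on genes of fatty acid synthesis, was at −0.54 ± 0.28, and Acly, which makes cytosolic acetyl-CoA, was at −0.57 ± 0.31. For Luzp1, 3 of 6 tested genes of actin cross-linking and the start of cilium formation were below 0, with Actn2, alpha-actinin of the sarcomere, at 0.33 ± 0.14 and Lima1 at −0.44 ± 0.29. Lsmem1, the relative of Lsmem2, was at −0.11 ± 0.17, with 52.4 ± 11.7 CPM with nanoplastics and 56.3 ± 5.77 CPM in controls (SD, n = 4 and 3).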

How the data were processed

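RNA from 3 sections of each heart of 4 nanoplastics and 3 control mice was purified with TRIZOL and made into Singleron AccuraCode libraries sequenced on an Illumina NovaSeq, per the labels' protocols. STAR, an aligner, stands in the submitters' processing notes with no version. Not given in the sources used here are the build, the annotation, the counting program and whether strand or molecular identifiers were used. The authors deposited raw counts per gene symbol for 20960 genes and 21 libraries, which held 4662 to 2439314 counts. No 2 libraries were identical.

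The counts were fitted with edgeR 4.0.16 in R 4.3.3 (TMM, filterByExpr, robust quasi-likelihood test, Benjamini-Hochberg adjustment over all genes tested, calls at an adjusted p under 0.05), limma 3.58.1 and DESeq2 1.42.0. Adjusted p-values come from edgeR unless another tool is named. The whole heart is the sum of a mouse's sections. Section comparisons and section differences had the mouse as a block, since the labels put the sections in the same animal (correlations of deviations between sections of a mouse, 0.02 to 0.31). The 10 genes were kept in every fit. On their own counts all 10 passed the filter over the whole heart, and 4, 3 and 4 in the atrial, right and left ventricular sections, 6 in the section differences, 3 for atria against left ventricle, 2 for atria against right ventricle and 3 for right against left ventricle. Over the whole heart Yrdc, B3gat3, Art5 and Pias4 passed through their control mice alone. Count ratios have exact 95% intervals from the counts and the library totals scaled by TMM.

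The members and the lists of related genes were chosen with earlier results of these data known. Besides the members, the text names up to 3 genes per list with the smallest whole-heart p, and the 8 genes whose log2 CPM (prior count 2, libraries above 100000 counts, mean of at least 10 counts, without Gm and Rik symbols) had the highest mean correlation with the members. Transcript lengths are those of the longest transcript in GENCODE M21 and promoters are from RefSeq. The fitting steps were tested on simulated data. Alternatives were other scalings (DESeq2 size factors, library totals), no filter, DESeq2, removal of the trend on transcript length (lowess, span 0.3), each mouse or single libraries left out, mouse numbers as a block, other weights of the sections, and no mouse block.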

Additional observations from a re-analysis of the deposited data

Results flagged for a closer look

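Art5 over the whole heart was at 0.462 CPM in nanoplastics mouse 2, far below the other 3 nanoplastics mice, and the gap to the nearest of them was 0.853 of the range of the group, above Dixon's 95% critical value of 0.829 for 4 samples. The value rested on 1 count. Of 30 groups of 4 samples checked over the 10 genes, this was the 1 that passed, and chance gives about 1 in 20.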

How the results depend on the processing

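Over the whole heart the median log2 change of the 10 genes was −1.11 and lay between −1.47 and −0.96 when a mouse was left out. The mouse numbers do not pair the treatments (correlations of deviations 0.07, 0.09 and −0.04). With the number as a replicate block, over mice 1 to 3 of each treatment, the median was −1.48 over the whole heart and −1.38 in the right ventricle, against −1.47 and −1.26 without nanoplastics mouse 4 and with no block, and −1.11 and −0.97 over all mice. With the block 9 members were among 49 genes called lower over the whole heart, against 8 among 28 without nanoplastics mouse 4 and no block. The whole-heart count of called members was 9 of 65 genes called lower. With a mouse left out it was 0 to 8, among 0 to 64 genes called lower. It was 1 of 44 with DESeq2, 4 of 21 with the length trend removed and 2 of 8 with atria and left ventricle only. It was 1 of 9 with sections at equal weight, where Yrdc was at −1.29, against −2.33, and B3gat3 at −1.18, against −1.66. In the right ventricle 1 member was called with library totals, beside 223 of 4496 tested genes called lower. With a mouse left out 1 was called without nanoplastics mouse 3, beside 69 of 4774 called lower, and none otherwise. In the left ventricle 1 was called with library totals, beside 23 of 5446 called lower, and 1 with no filter, beside 16 of 17898. With a mouse left out 1 was called there without control mouse 3, beside 16 of 6224 called lower, and none otherwise. Luzp1 in the right ventricle was at a log2 change of 0.11 without nanoplastics mouse 4, against −0.27, so its direction there rested on that mouse, and at −0.66 without nanoplastics mouse 3. The cause of these shifts was not tested, except that leaving out mice or sections leaves fewer counts. No member was called in a section difference or between sections in any of the 15 alternatives to each. Library totals moved the median log2 change of all genes to −0.27 over the whole heart, and that of the members to −1.35. Most section values rest on fewer than 50 counts per group, and the right ventricle on 3 nanoplastics libraries of low depth, which limits what differences between sections could be seen.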
